A study of Mus musculus with 8 samples.

Results

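The transcripts of 10 subunits of Polycomb repressive complex 2 (PRC2) were followed after knockdown of Pcgf1. The cells were cultured mouse haematopoietic stem and progenitor cells (HSPCs), all of the genotype Runx1 Δ/Δ. The members were the core subunits Ezh1, Ezh2, Eed and Suz12 and the accessory subunits Jarid2, Aebp2, Mtf2, Phf1, Phf19 and Epop. They were found by name, through the transcript accession of each non-control probe, and made up 10 of the 17300 genes with a test and 15 of the 41174 probes on the arrays. Epop was the single member that passed the test: its signal rose 2.09-fold in cells with the Pcgf1 shRNA. None of the core subunits passed. The brighter of 2 Jarid2 probes and the Ezh1 probe were lower in all 4 mice, and Phf19 was higher in all 4, each without passing.

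PRC2 places methyl groups on histone H3 at the lysine called H3K27, a mark of silenced genes. Ezh1 or Ezh2 is the catalytic subunit, Eed binds the methylated histone tail and Suz12 holds the core together, while accessory subunits split PRC2 into a form with Jarid2 and Aebp2 and a form with a Polycomb-like protein (Mtf2, Phf1 or Phf19), to which Epop can be added. Pcgf1 belongs to a variant of the other Polycomb complex, PRC1, which ubiquitinates histone H2A, and in blood-forming cells both complexes are known for holding developmental regulators silent.

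Each of 4 mice gave 1 culture with a control shRNA and 1 with a Pcgf1 shRNA, so each group held 4 arrays, 1 per culture. All mice had the genotype Runx1 Δ/Δ in a strain mixed from C57Bl/6 and 129SvJ, so both groups shared the deletion of Runx1, a transcription factor of blood formation, and no Runx1 wild type group is analysed here. Bone marrow of femur and tibia was depleted of lineage-positive cells and kept for 2 days in serum-free medium with mSCF (50 ng/ml), hFlt3 ligand (100 ng/ml), hIL-11 (100 ng/ml) and mIL-3 (10 ng/ml). The shRNA was then delivered by retrovirus, and puromycin (5 µg/ml) was present for 36 h from 24 h after transduction. How Runx1 was deleted, the age of the mice and the number of hairpins used are not given in the sources used here. The 2 cultures of a mouse share the animal. The main p-values treat all arrays as independent, while a fit with mouse as a block compares the 2 cultures of each animal. Both rest on 4 animals handled as labelled.

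Between 54.8% and 62.0% of the 43379 spots that were not controls stood well above background on an array, no spot was saturated, and the number of arrays limits the precision. Signals are given below as normalised log2 intensity, that is the log2 of the processed spot intensity minus the 75th percentile of the array's spots, so 0 is the 75th percentile and a difference of 1 is a 2-fold difference. Differences are always Pcgf1 shRNA minus control shRNA. Pcgf1 itself had a normalised log2 intensity of −0.23 ± 0.18 (SD, n = 4) with the control and −1.59 ± 0.17 with the Pcgf1 shRNA, a difference of −1.36 (SE 0.12, adjusted p = 0.0197). The Runx1 probe showed a difference of 0.27 (adjusted p = 0.473); its place with respect to the deletion is unknown, so it does not check the genotype. The progenitor markers Kit and Cd34, a receptor tyrosine kinase and a surface sialomucin, were both measured: Kit had 1.30 ± 0.14 with the control shRNA and 1.13 ± 0.09 with the Pcgf1 shRNA (adjusted p = 0.536), and Cd34 rose from 3.81 ± 0.08 to 4.75 ± 0.25 (adjusted p = 0.0251).

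All 15 member probes were well above background on all 8 arrays, so no member entered the test through 1 group alone. A gene was called when limma gave it a Benjamini-Hochberg adjusted p under 0.05 over all genes. By that rule 1 of the 10 members was called, as against 132 of all 17300 genes, or 0.763%. It was called higher, as were 0.595% of all genes, while 0 members and 0.168% of all genes were called lower. With mouse as a block, which compares the 2 cultures of each animal, the same 1 member was called and the number of all genes called was 921, or 5.32% (2.91% higher and 2.42% lower). Over probes 1 of 15 was called, the Epop probe, against 0.629% of all probes tested. The median difference of the members was 0.04 and that of all genes 0.00, while the median size of the difference regardless of sign was 0.14 for the members and 0.12 for all genes. 4 of the 10 members had an unadjusted p under 0.05, against 12.2% of all genes without the block (also 4 members, against 23.5%, with it), and these were Epop, Jarid2, Phf19 and Mtf2. The 4 arrays of a group lay apart from the 4 of the other group for Epop, Jarid2 and Ezh1, or 3 of 10 members, against 7.16% of genes on all arrays. No count here tests the list.

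**Figure D1:**
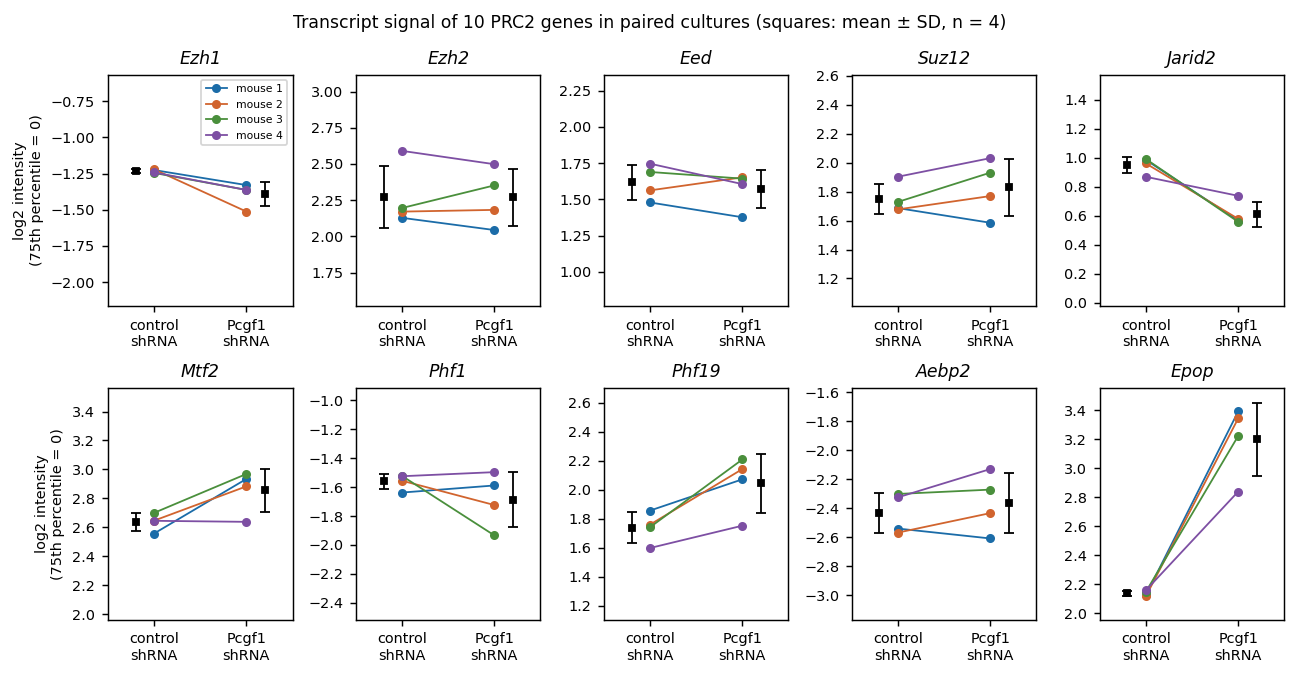
Normalised log2 intensity (vertical axis, 75th percentile of the array at 0) of the probe that stands for each of the 10 PRC2 genes with control and Pcgf1 shRNA (horizontal axis). Dots are arrays, a line joins the 2 cultures of a mouse, squares with bars are the mean ± SD of 4 arrays, and each panel spans the same log2 range around its own level. Epop is higher with the Pcgf1 shRNA in every mouse, Ezh2, Eed and Suz12 show lines in both directions, and Jarid2 has a difference of −0.43 to −0.13 in each mouse.

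Epop encodes a protein that links PRC2 to the elongin B and C pair and is one of the accessory subunits of the Polycomb-like form. Its probe (A_51_P161946) had processed intensities of 2756, 2253, 2562 and 3146 in the control cultures of mice 1 to 4 and of 5728, 6878, 6742 and 6119 in their Pcgf1 shRNA cultures. On the normalised log2 scale these were 2.13, 2.12, 2.15 and 2.16 in the controls and 3.39, 3.35, 3.22 and 2.84 with the Pcgf1 shRNA. The controls lay close together and the groups did not overlap, with mouse 4 the lowest of the Pcgf1 shRNA cultures. In these bulk cultures a change in the share of a cell type and a change in RNA per cell cannot be told apart. Epop rose from 2.14 ± 0.02 to 3.20 ± 0.25 (SD, n = 4), a log2 difference of 1.06 (SE 0.12, 95% interval 0.78 to 1.35), or 2.09-fold (1.72 to 2.54), with an adjusted p of 0.0206 in limma and 0.0164 with mouse as a block. The exact permutation test over the 8 arrays gave p = 0.0286, the value that groups without overlap always give, or 0.0952 adjusted over the 10 members. An exact sign-change test over the 4 within-mouse differences cannot go below 0.125, the value it gave. Within mice the rise was 2.41-fold, 2.34-fold, 2.11-fold and 1.60-fold in mice 1 to 4, or a log2 difference of 1.25 on the slide with mice 1 and 2 and of 0.88 on the slide with mice 3 and 4. Among all genes tested Epop ranked 58 by the size of its rise and 14 by p. The call did not hold without every mouse: with 3 mice and no block the adjusted p was 0.139 without mouse 1, 0.352 without mouse 2, 0.175 without mouse 3 and 0.0158 without mouse 4. With the block it was 0.0523, 0.092, 0.0335 and 0.0424 in the same order, so the call held without mouse 3 or 4, and the difference stayed between 0.99 and 1.19. Without the block the loss was not particular to Epop, as 1, 0 and 0 of all genes passed without mice 1, 2 and 3. Pcgf1 itself did not pass in these fits either (limma adjusted p = 0.113, 0.352 and 0.0904). With the block and without mouse 1, however, 284 genes passed, among them Pcgf1 (limma adjusted p = 0.0372). With the block and without mouse 2, 0 genes passed.

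**Figure D2:**
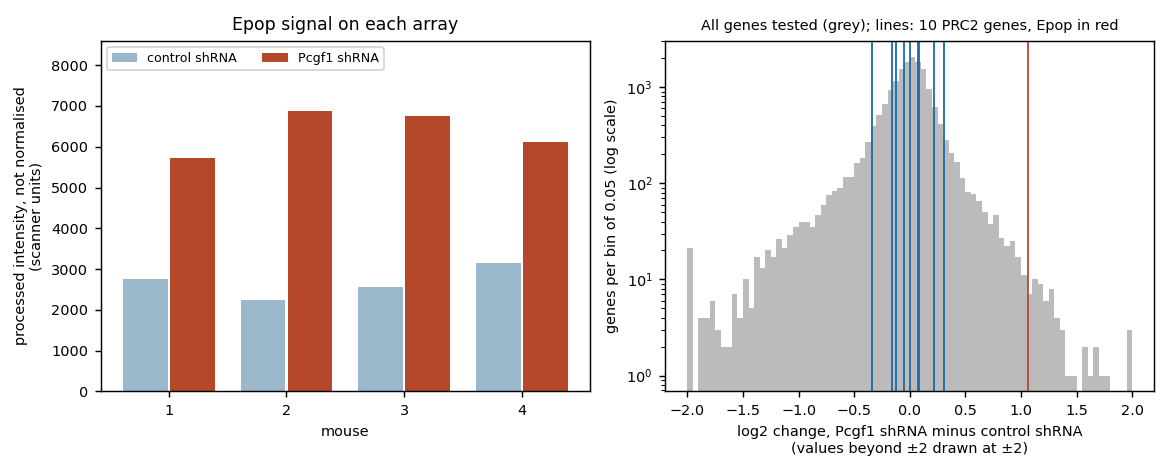
Left, processed intensity of the Epop probe before normalisation (bars, scanner units) on the control and Pcgf1 shRNA array of mice 1 to 4. Right, histogram of the log2 difference of all genes tested (grey, log-scaled count per bin of 0.05) with the 10 members as lines. The Pcgf1 shRNA bars lie at 5728 to 6878 against 2253 to 3146 for the controls, and the red Epop line at 1.06 lies apart from the 9 blue lines between −0.34 and 0.31.

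Some markers of cell types also differed between the groups. Of 11 measured markers of mature neutrophils 3 fell and 0 rose, and with mouse as a block 8 fell and 1 rose. Fpr2, a formyl peptide receptor, fell by 1.79 (log2, adjusted p = 0.0264), and Ngp, a granule protein, was not well above background on any Pcgf1 shRNA array. Ngp was at least 3.38-fold lower there, against the lowest signals called above background (adjusted p = 0.0287, or 0.0671 with normexp background correction). It passed the filter through the controls alone and is among the 3 markers that fell. Its p-value rests on Pcgf1 shRNA values not above background and is not read as support. The summed linear signal of the list ran from 86.1 to 235 in the controls and from 12.6 to 46.5 with the Pcgf1 shRNA, and Mmp9 was above background on 0 arrays. Of the 9 measured stem and progenitor markers 1, Cd34, rose and 0 fell, and with the block Meis1, a homeobox gene of stem cells, rose too (0.79, adjusted p = 0.0318). Of the 9, 4 had a difference above 0 and 5 below, with a median of −0.03. The sum of that list ran from 23.7 to 25.9 and from 34.6 to 41.1, but without Cd34 it ran from 9.63 to 12.5 and from 8.68 to 13.3. The sums of the whole lists did not overlap between the groups for either list, and their part in the Epop result was not tested.

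The catalytic subunits were not called in either direction. Ezh2, the main methyltransferase of dividing cells (A_51_P248067), had normalised log2 intensities of 2.13, 2.17, 2.20 and 2.59 in the control cultures of mice 1 to 4 and of 2.04, 2.18, 2.35 and 2.50 with the Pcgf1 shRNA. The cultures of mouse 4 were the highest in both groups and the groups overlapped throughout. The means were 2.27 ± 0.21 and 2.27 ± 0.20, and the 95% interval of the difference was −0.32 to 0.32 (adjusted p = 0.998). Its sign turned with the scaling and is not read as a direction. Ezh1, the second methyltransferase, known from non-dividing cells (A_52_P237871), had −1.23, −1.22, −1.25 and −1.24 in the controls and −1.33, −1.51, −1.36 and −1.36 with the Pcgf1 shRNA. All 4 Pcgf1 shRNA cultures were below all 4 controls, which lay close together, and mouse 2 was the lowest. The difference was −0.16 (SE 0.07, 95% interval −0.32 to 0.01) and did not pass the test (adjusted p = 0.438). The exact permutation p was 0.0286, or 0.0952 adjusted over the 10 members, and the sign-change p was 0.125. Groups that do not overlap always give 0.0286 there, so it only restates the gap.

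Eed, the subunit that reads the methylated tail (A_51_P238643), had 1.48, 1.56, 1.69 and 1.75 in the controls and 1.38, 1.65, 1.64 and 1.60 with the Pcgf1 shRNA. The groups overlapped and the 2 cultures of mouse 1 were the lowest of their groups. The difference was −0.05 with a 95% interval of −0.28 to 0.18 (adjusted p = 0.891). Suz12, the scaffold subunit, had 2 probes on the same transcript. The brighter one (A_51_P214796) had 1.69, 1.68, 1.73 and 1.90 in the controls and 1.58, 1.77, 1.93 and 2.03 with the Pcgf1 shRNA, a difference of 0.08 (95% interval −0.18 to 0.34, adjusted p = 0.830). It was higher in 3 of 4 mice and lower in mouse 1. The dimmer probe gave −0.07 (95% interval −0.35 to 0.22, adjusted p = 0.877). The 2 probes differed by 0.15 ± 0.16 (SD) within mice (exact permutation p = 0.343) and correlated at r of 0.26 over the arrays. That test shuffled the arrays without the pairing by mouse, so it cannot show whether the 2 probes agree.

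For Ezh2, Suz12 and Eed the means of the mice lay further apart than those of the shRNA groups, although no test separated the mice. A mouse mean rests on 2 arrays and a group mean on 4, so a wider range among the 4 mice is likely by chance. The comparison is a description and does not show an effect of the mouse. Averaged over both cultures, Ezh2 was 2.09, 2.18, 2.27 and 2.54 in mice 1 to 4, and Suz12 was 1.63, 1.72, 1.83 and 1.97. Eed was 1.43, 1.61, 1.67 and 1.68. For these 3 genes mouse 1 was lowest and mouse 4 highest, and Aebp2 had the same ends, with −2.57 in mouse 1 and −2.23 in mouse 4. A limma F test of the 4 mice with the shRNA as a term called none of the 10 members, against 9.88% of all genes, with the lowest adjusted p of 0.112 at Ezh2. Over the 8 arrays, which share 4 animals and 2 slides, Pearson's r was 0.90 between Ezh2 and Suz12 and 0.91 between Suz12 and Aebp2, as a description. By the same measure 11712 genes with a symbol were ranked for likeness to a member. The highest of so many r values over 8 arrays can be high through the selection alone, and none was tested. The genes most like Ezh2 included Mis18a (r = 0.979), a factor of centromere assembly, and Zwilch (0.975), a kinetochore protein. Those most like Eed were Spc25 (0.975), a kinetochore subunit, Vrk1 (0.950), a kinase of mitotic chromatin, and Zfp119a (0.940). For Suz12 they were Smchd1 (0.983), a chromatin protein of the inactive X chromosome, Adnp (0.981), a zinc-finger chromatin protein, and Golim4 (0.978), a Golgi protein. For Ezh1 they were the imprinted gene Mest (0.966), Coq8a (0.957) of coenzyme Q synthesis and Tmem167b (0.946), in a pattern that holds the gap between the groups.

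Genes of the cell cycle that E2F transcription factors drive are a textbook class to which Ezh2 belongs, and their list was therefore followed beside it. Of its 27 genes 26 were measured and 0 passed in either direction, without or with the block. Unadjusted p was under 0.05 for E2f2, an E2F family member, at −0.71 (adjusted p = 0.273), and the next smallest p belonged to Ccne2, a cyclin of S phase entry, at −0.24 (adjusted p = 0.441). The median difference of the list was −0.01, and its summed linear signal, in units of the array's 75th percentile, ran from 618 to 719 in the controls and from 621 to 670 with the Pcgf1 shRNA. The promoters of the members were searched for 4 spelled E2F-type motifs, TTTGGCGC, TTTCGCGC, TTTCCCGC and TTTGCCGC, on both strands of RefSeq windows of 250 bases before to 50 after a start (GRCm38.p6). A window was at hand for 9 of the 10 members, in 13 windows, and 3 of these held a motif, in Ezh2, Suz12 and Phf19, against 2.26% of all 32851 windows. The windows with a motif held 64.3% (Ezh2), 71% (Suz12) and 74.3% (Phf19) G and C. The share over all windows was not matched for base composition, so the counts do not show an enrichment. A match is a description of letters, not a site. The 3 stretches are printed because they are the members whose windows hold the motif, which stands in capitals. The Ezh2 stretch covers chr6:47595009-47595038 on the minus strand, around the start, with the motif from base 4 of the transcript. The Suz12 stretch is chr11:79992856-79993105 on the plus strand, the 250 bases before the start, with the motif beginning 219 bases before it. The Phf19 stretch is chr2:34913977-34914226 on the minus strand, also the 250 bases before the start, with the motif on the opposite strand, 208 bases before it, and so printed as GCGGGAAA.
Ezh2: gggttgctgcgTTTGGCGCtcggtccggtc
Suz12: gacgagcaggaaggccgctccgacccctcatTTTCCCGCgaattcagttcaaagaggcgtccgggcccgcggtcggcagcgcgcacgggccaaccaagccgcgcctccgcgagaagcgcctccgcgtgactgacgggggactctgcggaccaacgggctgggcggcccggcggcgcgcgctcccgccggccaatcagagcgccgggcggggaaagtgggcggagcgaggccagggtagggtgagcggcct
Phf19: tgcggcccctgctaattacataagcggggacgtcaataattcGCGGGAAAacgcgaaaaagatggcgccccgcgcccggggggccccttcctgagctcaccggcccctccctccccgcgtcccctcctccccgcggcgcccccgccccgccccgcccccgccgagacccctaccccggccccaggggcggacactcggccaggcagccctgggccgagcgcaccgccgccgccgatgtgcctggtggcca

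Of the 2 subunits of the Jarid2 form, Jarid2 itself, which helps bring PRC2 to chromatin and lacks the demethylase activity of its family, had the second smallest p of the members. Its brighter probe (A_52_P370203) had 0.99, 0.96, 0.99 and 0.87 in the controls of mice 1 to 4 and 0.57, 0.58, 0.56 and 0.74 with the Pcgf1 shRNA. The groups did not overlap, and mouse 4 had both the lowest control and the highest Pcgf1 shRNA value. The difference was −0.34 (SE 0.08, 95% interval −0.52 to −0.17), lower in 4 of 4 mice, and did not pass (adjusted p = 0.102 in limma, 0.0712 with mouse as a block). The exact permutation test gave p = 0.0286, the smallest possible and not adjusted. Without mouse 4 it passed without the block, at −0.41 and an adjusted p of 0.0359, but not with it (0.0649). The second probe, on the same transcript (A_51_P264073), had −1.17, −0.98, −1.14 and −0.77 in the controls and −1.28, −1.05, −1.12 and −0.84 with the Pcgf1 shRNA, and these groups overlapped. It gave −0.06 (95% interval −0.35 to 0.23, adjusted p = 0.899). Within mice the difference of the brighter probe was below that of the dimmer one in 4 of 4, by −0.28 ± 0.16 (SD). An exact permutation test of this gave a two-sided p of 0.0857, or 0.514 adjusted over the 6 pairs of probes. That test shuffled all 8 arrays without the pairing by mouse and cannot go below 0.0286. It therefore cannot show whether the 2 probes agree. The genes most like the brighter probe over the 8 arrays were Grk5 (r = 0.978), a kinase of G protein-coupled receptors, Tifa (0.967), an adaptor of innate immune signalling, and Cybb (0.966), a subunit of the phagocyte oxidase. These too hold the gap between the groups. Aebp2, a zinc-finger partner of Suz12, had 2 probes on different RefSeq transcripts, with differences of 0.07 (95% interval −0.21 to 0.36, adjusted p = 0.867) and −0.02 (adjusted p = 0.953). Its values ran from −2.57 to −2.30 in the controls and from −2.61 to −2.13 with the Pcgf1 shRNA on the brighter probe.

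**Figure D3:**
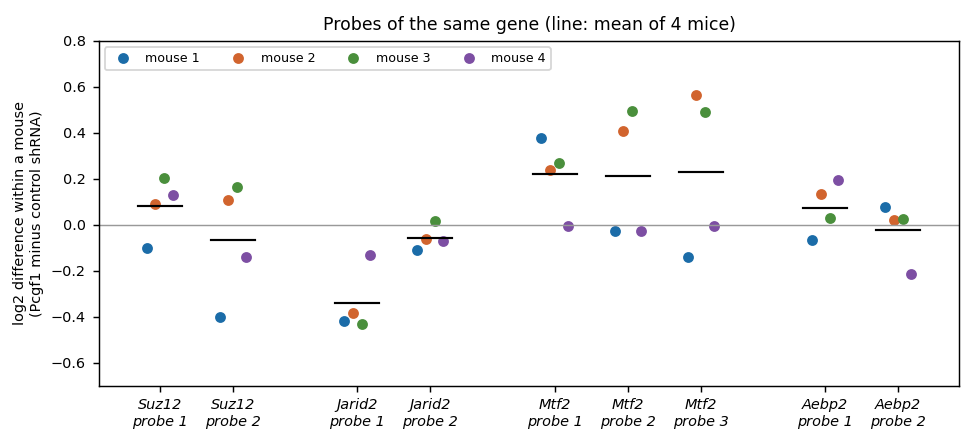
Log2 difference within each mouse, Pcgf1 minus control shRNA (vertical axis), for the 4 members with more than 1 probe (horizontal axis); dots are mice and the line is their mean. The 2 Jarid2 probes have means of −0.34 and −0.06, while the 3 Mtf2 probes have means of 0.22, 0.21 and 0.23 with mouse 4 near 0 on each. Mouse 1 is at 0.38 on Mtf2 probe 1 and at −0.03 and −0.14 on the other Mtf2 probes.

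The Polycomb-like subunits bind H3K36-methylated tails and CpG-rich DNA. Phf19 (A_51_P204442) had 1.86, 1.76, 1.74 and 1.60 in the controls of mice 1 to 4 and 2.07, 2.14, 2.21 and 1.75 with the Pcgf1 shRNA. It was higher in 4 of 4 mice, but the Pcgf1 shRNA value of mouse 4 lay below the control of mouse 1, so the groups overlapped. The difference of 0.31 (SE 0.12, 95% interval 0.04 to 0.57) had an unadjusted p of 0.0291 and did not pass (adjusted p = 0.343, or 0.0932 with mouse as a block). Mtf2, with 3 probes on the same transcript, had 2.56, 2.65, 2.70 and 2.65 on its brightest probe (A_51_P261001) in the controls and 2.93, 2.88, 2.97 and 2.64 with the Pcgf1 shRNA. Mice 1 to 3 were above all controls and mouse 4 below its own. The difference was 0.22 (SE 0.09, 95% interval 0.01 to 0.43, adjusted p = 0.398), and the other probes gave 0.21 (adjusted p = 0.588) and 0.23 (adjusted p = 0.583). Exact permutation tests of the pairs of Mtf2 probes gave p-values of 0.83 to 0.97. Without the pairing by mouse they cannot show whether the probes agree. Mouse 1, however, was at 0.38 on the brightest probe and at −0.03 and −0.14 on the others. Each of those others was higher in 2 of 4 mice. Over the arrays the brightest probe correlated with them at r of 0.38 and 0.30. Phf1 (A_51_P220260) had −1.64, −1.56, −1.52 and −1.53 in the controls and −1.59, −1.72, −1.93 and −1.50 with the Pcgf1 shRNA. The groups overlapped, and its difference of −0.13 (95% interval −0.37 to 0.11) did not pass (adjusted p = 0.685).

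**Figure D4:**
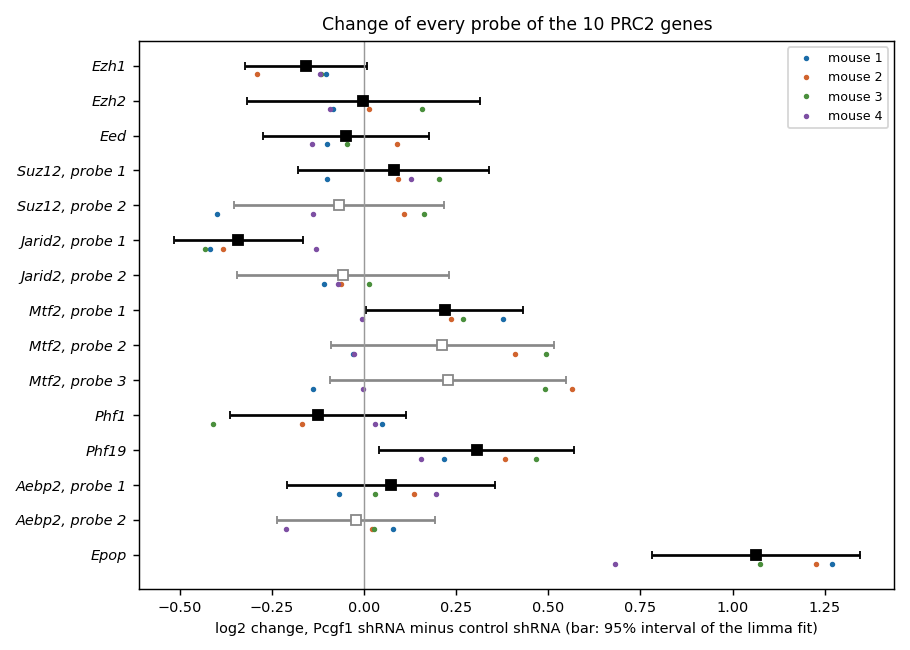
Log2 difference, Pcgf1 minus control shRNA (horizontal axis), of all 15 probes of the 10 genes (vertical axis). Squares with bars are the limma difference and its 95% interval, filled for the probe that stands for its gene and open for the others, and dots are the 4 mice. The Epop interval of 0.78 to 1.35 lies above every other one, and the intervals of Jarid2 probe 1, Phf19 and Mtf2 probe 1 are the others that leave out 0.

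Of the genes that work beside these subunits, 0 of the 3 measured partners and 0 of the 2 H3K27 demethylases passed. Rbbp4 and Rbbp7, the histone chaperones of the core, gave 0.06 (adjusted p = 0.869) and 0.10 (adjusted p = 0.741) on their brightest probes. The other Rbbp4 probes gave 0.29 (higher in 4 of 4 mice, unadjusted p = 0.0316, adjusted p = 0.359) and 0.10 (adjusted p = 0.812). Lcorl, whose locus also encodes a PRC2 partner, gave 0.37 on its brightest probe (SE 0.11, adjusted p = 0.216, or 0.0675 with mouse as a block) and 0.01 and −0.07 on its other probes. Its relative Lcor was above background on 0 arrays. Kdm6a, a demethylase of H3K27, gave −0.11 (adjusted p = 0.897). Kdm6b, the second such demethylase, gave 0.30 (SE 0.34, adjusted p = 0.774), with 1.10 in the Pcgf1 shRNA culture of mouse 3 and −0.48 to −0.28 in the other 3. Without mouse 3 its difference was −0.15.

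Beyond the neutrophil and progenitor markers, each of the other cell type lists had at most 1 call without the block. Of 9 measured mast cell and basophil markers 1 passed: Tpsb2, a tryptase, at −1.71 (adjusted p = 0.0467), and with the block 3 fell, among them Mcpt4, a chymase, at −1.27 (adjusted p = 0.079 without the block and 0.0164 with it). The list had sums of 42.1 to 64.8 and 36.7 to 50.9. Of 9 monocyte and macrophage markers 0 passed, and with the block 3 fell. Klf4 gave −1.26 and Irf8 −0.47, with sums of 80.9 to 176 and 63.5 to 116. Of 9 erythroid markers 0 passed, and with the block 3 fell. The transferrin receptor Tfrc gave −0.36 and Ermap −1.53, with sums of 122 to 257 and 53.5 to 187. Of 7 megakaryocyte markers 0 passed without or with the block, with Vwf at −0.49 and Ppbp at −0.50 and sums of 66.1 to 124 and 40.5 to 141. Several lymphoid and stromal markers were not detected: Pax5, Ebf1 and Ms4a1 of B cells, Cd3d, Cd3g, Klrb1c and Ncr1 of T and NK cells, and Col3a1, Cdh5 and Lepr of stroma and endothelium were above background on 0 arrays. Of the 4 measured B cell markers 0 passed, with Vpreb1 at 0.39 and sums of 1.78 to 2.18 and 1.43 to 1.89. Of 3 T and NK markers Lck, a kinase of T cell signalling, rose by 0.91 (adjusted p = 0.0339, or 0.0563 with normexp) and Il7r gave −1.40, with sums of 0.947 to 2.08 and 0.661 to 1.73. Of 3 stromal and endothelial markers 0 passed and 1 rose with the block, Pecam1 (0.51, adjusted p = 0.0313), while Kdr gave −0.53, with sums of 1.15 to 1.59 and 1.48 to 1.89. The part of these markers in the values of the members was not tested.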

How the data were processed

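Each deposited spot file holds, per the file headers, a processed intensity for every spot after background subtraction, with no normalisation between arrays. The scanner output was read with Agilent Feature Extraction 10.1, per the submitters' processing notes. A value table deposited by the authors is on the log2 scale. Over 14805 bright probes its array differences followed the spot files (r of 1 and slope of 1), with the median over the arrays at 0 for 100% of probes (tolerance 0.001). The medians of its control columns were 0.05, 0.11, 0.10 and −0.13 in mice 1 to 4, and those of its Pcgf1 shRNA columns 0.10, −0.05, −0.11 and −0.20. It served as an alternative.

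The log2 intensity was shifted by each array's 75th percentile over non-control spots, 242 values of non-uniform spots were left out, and spots of a probe were averaged. Of 41174 probes 22747 passed the filter, which asked for a signal well above background throughout 1 or both groups, and the brightest kept probe stood for a gene. Of all probes 24375 were named by matching their accession to RefSeq (GRCm38.p6) and 16799 were not. The test was that of limma 3.58.1 (R 4.3.3, lmFit, then eBayes), two-sided and without a block, with Benjamini-Hochberg adjustment over all genes at 0.05. A check on simulated data required only that the median estimate lie near the planted change, and set no requirement on the calls. The files' own build is not that of the RefSeq tables, so gene coordinates are not given beyond the RefSeq windows.

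The 2 cultures of a mouse come from 1 animal, as the titles give it. Deviations from the group means of same-mouse arrays correlated with r of 0.44, 0.48, 0.41 and 0.64 in mice 1 to 4. Mice 1 and 2 shared a slide, as did mice 3 and 4, and slide and scan batch coincided, so each slide held both groups. Alternatives were the block, slide, quantile normalisation, normexp (offset 50), no filter, array weights, the mean of a gene's probes, the value table and leaving out each mouse.

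Members and lists were chosen with earlier results of these data known. The naming rule took every member probe, every measured gene of the lists of PRC2 partners and demethylases, the 2 genes of each other list with the smallest p, Pcgf1, Runx1, and the 3 genes most like each core subunit and Jarid2. Some genes that this rule takes are not reported here. Kit and Cd34 were named as checks of the cell label. The exact permutation tests, the comparisons of probes and the F test between mice were chosen after seeing the data.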

Additional observations from a re-analysis of the deposited data

Results flagged for a closer look

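In 4 of the 76 groups of 4 cultures looked at (each named gene or probe in each group), 1 culture lay far from the other 3, its gap to the nearest, as a share of the group's range, being above Dixon's 95% critical value for 4 samples. Chance flags about 1 in 20 groups. The Ezh2 signal of the control culture of mouse 4 was 2.59 against 2.13 to 2.20 in the other controls. The Eed signal of the Pcgf1 shRNA culture of mouse 1 was 1.38 against 1.60 to 1.65. The Jarid2 signal (brighter probe) of the Pcgf1 shRNA culture of mouse 4 was 0.74 against 0.56 to 0.58. The Kdm6b signal of the Pcgf1 shRNA culture of mouse 3 was 1.10 against −0.48 to −0.28. All are normalised log2 intensities.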

How the results depend on the processing

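Genes called numbered 132 (78.0% of them higher). They were 921 with mouse as a replicate block (54.6% higher), 72 with normexp (66.7% higher), 1652 with array weights and 0 of 32968 without a filter, where limma gave 2199 at an unadjusted p under 0.05. Leaving out a mouse gave 0 to 363 without the block, and 284, 0, 306 and 145 without mice 1 to 4 with it. Members called numbered 1, or 0 without a filter (Epop adjusted p = 0.104), 4 with array weights (Epop, Mtf2 and Phf19 higher, Jarid2 lower), 0 to 2 on leaving out a mouse and 0 to 1 with the block as well, where Epop had adjusted p = 0.0523 without mouse 1 and 0.092 without mouse 2. Member probes called were 1, with 0, 4, 0 to 2 and 0 to 1 in the same order. Epop was called in 10 of 16 alternatives, with a difference of 0.99 to 1.19. With all 4 mice the block changed no call of a member. Without mouse 3 it restored that of Epop (0.175 to 0.0335), and without mouse 4 it ended that of Jarid2 (0.0359 to 0.0649). The median difference of the members stayed between 0.00 and 0.07. Ezh2 turned from −0.002 to 0.00050 with quantile normalisation, 0.026 with normexp and 0.025 without mouse 1, and ran from −0.055 to 0.028 on leaving out a mouse, with or without the block. Eed turned to 0.034 with array weights, and Kdm6b ran from −0.15 to 0.50 on leaving out a mouse. For these turns the cause was not tested. The 4 animals and the distance of dim probes from background limit what small differences can show.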
